A study of Mus musculus with 6 samples.

Results

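TSLP, its receptor chains, the receptor chains for IL-4 and IL-13 and the IL-33 receptor are encoded in the mouse by Tslp, Crlf2, Il7r, Il4ra, Il13ra1, Il13ra2, Il2rg and Il1rl1. These 8 genes were taken by name from a table of 18180 genes. All 8 were in the table and passed the filter on low counts, so all 8 were among the 15061 genes tested. The data were RNA-seq libraries of mouse tail skin in 2 groups of 3. Both groups carried Mettl3fl/fl, a floxed allele of the gene for the RNA methyltransferase METTL3. The control libraries had the genotype Mettl3fl/fl;K14creERT2-/- and the libraries labelled cKO had Mettl3fl/fl;K14creERT2+/-. K14CreERT2 is a tamoxifen-inducible Cre recombinase driven by the keratin 14 promoter, which is active in basal keratinocytes. Tamoxifen was given on 5 successive days, and skin was taken 4 weeks later. Tissue of the Cre group came from inflamed parts of the tail and control tissue from normal tails, so genotype and inflammation cannot be told apart here. The labels give no age, sex or strain and name no animals, so 2 libraries of a group may share an animal. P-values then speak only of variation from library to library, part of which may be technical.

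Total counts ran from 35855880 to 37043849 per library, and 3 counts, the limit that a count of 0 allows, equal 0.0817 to 0.0837 CPM, counts scaled to a common library size. Counts of 2 libraries of a group differed by more than counting noise, with a chi-square per degree of freedom from 3.92 to 4.10. Mettl3, the targeted gene, was higher in the libraries labelled cKO (14.9 ± 0.832 against 10.7 ± 1.42 CPM, SD, n = 3), which goes against the label, and the counts do not separate its floxed exons. Markers of keratinocytes such as Krt5 and Krt14 were abundant in every library. In skin tissue, more cells of a type and more RNA per cell cannot be told apart.

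TSLP is a cytokine that keratinocytes release at a stressed skin barrier. It binds CRLF2, and the pair then recruits the IL-7 receptor chain IL7R. Signals pass through JAK1 and JAK2 to STAT5 in dendritic cells, lymphoid cells and other cells that carry both chains. IL-4 binds IL-4Rα (Il4ra), which pairs either with the common gamma chain (Il2rg), mostly on blood-derived cells, or with IL-13Rα1 (Il13ra1), on keratinocytes, fibroblasts and myeloid cells. The latter pair also serves IL-13, and both pairs activate STAT6. IL-13Rα2 (Il13ra2) binds IL-13 tightly with little signalling and is known as a decoy. IL1RL1, also called ST2, is the receptor for the alarm cytokine IL-33 and works with the shared chain IL1RAP.

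Of the 8 genes, 6 were higher in the libraries labelled cKO, 1 was lower and 1 did not pass the test (edgeR's quasi-likelihood test, Benjamini-Hochberg adjustment over all genes tested, adjusted p under 0.05). Tslp, Il7r, Il2rg, Il1rl1 and Il4ra rose 2.50-fold to 4.31-fold, Il13ra1 rose 1.24-fold and Il13ra2 fell 1.58-fold. These counts stand beside a broad background. Of all genes tested 61.4% were called, 30.8% higher and 30.6% lower, so 7 calls among 8 genes say little in themselves. A rise of at least 2-fold was called in 5.98% of genes tested and in 5 of these 8. The median log2 fold change was 1.47 over the 8 genes and 0.0021 over all genes tested. Control and cKO libraries did not overlap in 7 of the 8 genes, and in 64.9% of all genes tested. With limma on log2(FPKM + 1) the same 7 genes passed, but the log2 changes of Il7r, Tslp, Il1rl1 and Il13ra2 were 0.84, 1.18, 1.04 and -0.40, 1 FPKM not being small beside their levels. The biological variation between libraries (BCV, a coefficient of variation) was estimated at 5.34% in common over the genes tested. The small adjusted p-values rest on that low spread. With the BCV set to 40% instead of estimated, Tslp, Il7r, Il2rg and Il1rl1 still passed in edgeR. Il4ra and Il13ra2 then had adjusted p of 0.0934 and 0.782, and Il13ra1 did not pass either.

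**Figure D1:**
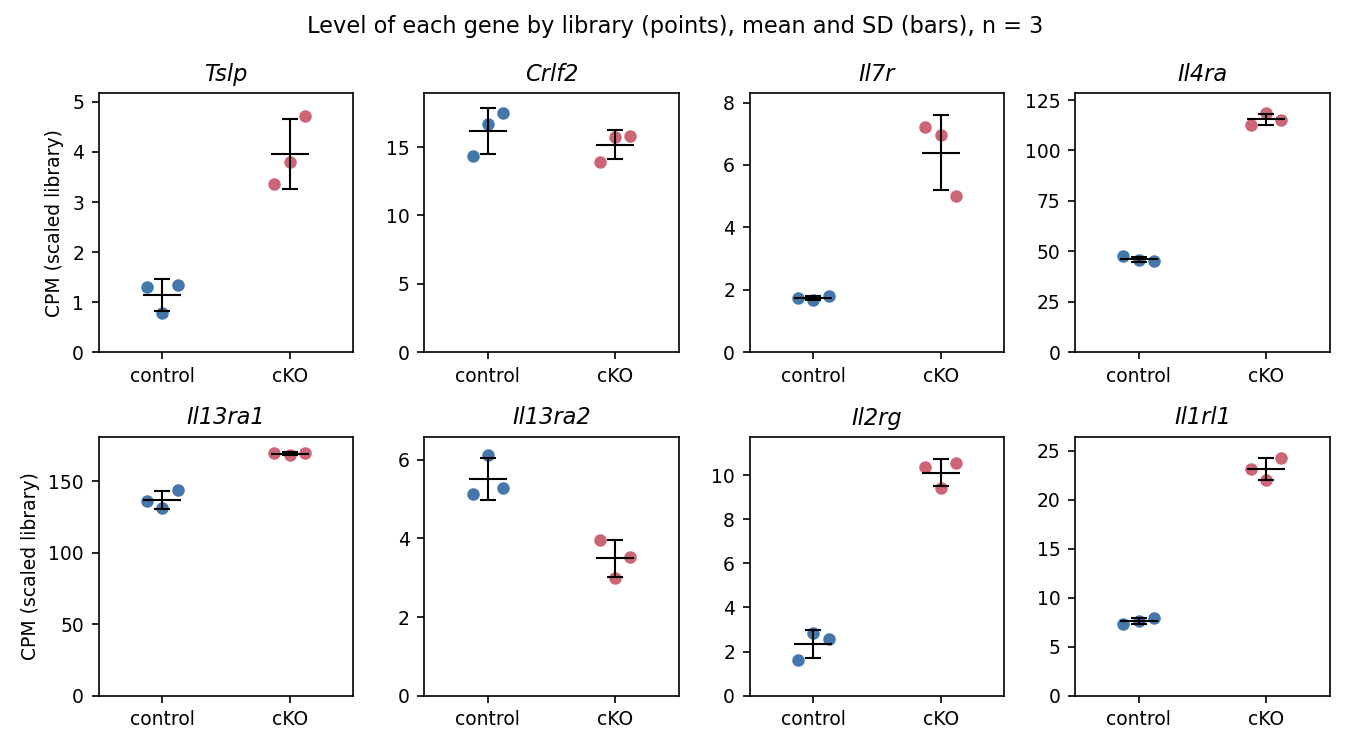
CPM of the 8 genes (vertical axes, each from 0) in the 3 control and 3 cKO libraries, with points for libraries, the short line for the mean and bars for the SD. Points of the 2 groups overlap for Crlf2, where the control libraries span 14.3 to 17.5 CPM and the cKO libraries 13.9 to 15.8 CPM, and are apart for the other 7 genes.

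Tslp had few counts. It had 48, 28 and 49 counts in control replicates 1 to 3 and 121, 138 and 172 counts in cKO replicates 1 to 3. Control libraries were all at or under 1.33 CPM and cKO libraries at or above 3.35 CPM. Mean Tslp went from 1.14 ± 0.312 CPM to 3.96 ± 0.701 CPM and rose 3.46-fold (edgeR log2 change 1.79 with SE 0.26, adjusted p = 1.33e-08). Leaving out 1 library at a time gave log2 fold changes from 1.58 to 1.92.

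Crlf2, the chain that only TSLP uses, was the member without a call. It was counted 526, 598 and 643 times in the control replicates against 503, 572 and 576 times in the cKO replicates. The ranges of the groups overlapped. The means were 16.2 ± 1.65 and 15.2 ± 1.07 CPM (log2 change -0.09 with SE 0.098, edgeR adjusted p = 0.423). A p of this size does not show that the level was the same.

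Il7r, the second chain of the TSLP receptor and also the receptor chain for IL-7 on lymphocytes, was counted 64, 60 and 66 times in the control replicates against 260, 253 and 182 times in the cKO replicates. The control libraries lay within 10% of one another, and cKO replicate 3 was lower than the other two of its group. Mean Il7r went from 1.74 ± 0.0613 CPM to 6.39 ± 1.21 CPM and rose 3.67-fold (edgeR log2 change 1.88 with SE 0.20, adjusted p = 8.43e-13). How the chains of the TSLP receptor stood to one another was read from a ratio, without a test. The ratio of Crlf2 to Il7r in FPKM, a level per length, was 18.5, 22.4 and 21.9 in control and 4.35, 5.09 and 7.12 in cKO libraries. The mean ratio was 20.9 ± 2.14 in control and 5.52 ± 1.43 in cKO libraries, 3.79 times higher in control, with no overlap. Crlf2 was the more abundant of these chains in every library.

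To show the regulatory sequence upstream of the members that changed, the 250 bases before the annotated transcription start were read from RefSeq's promoter table (GRCm38.p6, an older build than that of the counts). Windows were used for 7 of the 8 genes, with 2 starts for Il1rl1. Tslp, which also changed, was the gene left out. Capitals mark matches, on either strand, to 5 short motifs. The palindrome of STAT factors was searched as TTCNNNGAA, held by 7.01% of 32817 promoter windows of the same length, and with a wider spacing as TTCNNNNGAA, held by 5.85% of them. The motif of GATA factors was AGATAA, held by 9.99% of windows. For AP-1 it was TGANTCA, held by 6.75%. For ETS factors it was GGAAGT, held by 19.7%. No matches overlapped in the windows shown. The Il7r window (chromosome 15, minus strand) held 1 match to the STAT motif with a spacing of 3 and 1 ETS match.

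Il7r: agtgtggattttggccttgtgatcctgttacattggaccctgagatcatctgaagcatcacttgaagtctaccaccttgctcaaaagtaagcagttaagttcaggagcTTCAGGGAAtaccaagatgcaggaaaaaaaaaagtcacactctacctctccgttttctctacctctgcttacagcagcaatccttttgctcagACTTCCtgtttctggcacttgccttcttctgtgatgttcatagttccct

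The windows of Il4ra, Il2rg and Crlf2 held no match to the 5 motifs, and that of Il13ra1 held 1 ETS match. A match is only a match of letters, and no binding was measured.

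Il4ra, the chain through which both IL-4 and IL-13 signal, rose in absolute terms more than any other member. It was counted 1741, 1632 and 1662 times in the control replicates against 4069, 4302 and 4188 times in the cKO replicates. Replicates lay close together, and the lowest cKO library was more than double the highest control library. Mean Il4ra went from 46.1 ± 1.18 CPM to 115 ± 2.90 CPM and rose 2.50-fold (edgeR log2 change 1.32 with SE 0.043, adjusted p = 6.23e-41). Its promoter window (chromosome 7, plus strand) is shown because it is the shared chain of both receptor types.

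Il4ra: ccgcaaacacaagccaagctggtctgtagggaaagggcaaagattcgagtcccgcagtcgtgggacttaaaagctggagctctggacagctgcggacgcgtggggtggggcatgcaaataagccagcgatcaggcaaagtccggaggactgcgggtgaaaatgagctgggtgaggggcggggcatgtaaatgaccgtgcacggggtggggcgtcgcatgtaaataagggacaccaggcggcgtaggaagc

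Il2rg, the common gamma chain of the IL-2, IL-4, IL-7, IL-9, IL-15 and IL-21 receptors, had the largest fold change of the 8. It was counted 60, 101 and 95 times in the control replicates against 374, 342 and 384 times in the cKO replicates. Control replicate 1 was lower than the other two of its group, and all cKO libraries were above 9 CPM. Mean Il2rg went from 2.35 ± 0.628 CPM to 10.1 ± 0.606 CPM and rose 4.31-fold (edgeR log2 change 2.11 with SE 0.17, adjusted p = 4.08e-18).

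Il13ra1, the partner of Il4ra on epithelial cells and fibroblasts, was the most abundant member and rose least. It was counted 5006, 4699 and 5276 times in the control replicates against 6139, 6110 and 6189 times in the cKO replicates. The cKO libraries lay within 2% of one another and all above the control libraries. Mean Il13ra1 went from 137 ± 6.27 CPM to 169 ± 1.03 CPM and rose 1.24-fold (edgeR log2 change 0.31 with SE 0.031, adjusted p = 4.60e-14), and with an assumed BCV of 20% its adjusted p was 0.401. Of the 2 partners of Il4ra, the ratio of Il2rg to Il13ra1 in FPKM was 0.0269, 0.0482 and 0.0404 in control and 0.137, 0.125 and 0.139 in cKO libraries. Its mean was 3.48-fold higher in cKO libraries without overlap, yet Il13ra1 remained over 7 times the level of Il2rg per length in every library.

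Il13ra2, the decoy receptor, was the only member that fell. It was counted 188, 219 and 194 times in the control replicates against 143, 109 and 128 times in the cKO replicates. Every cKO library was under every control library. Mean Il13ra2 went from 5.51 ± 0.532 CPM to 3.49 ± 0.480 CPM and fell 1.58-fold (edgeR log2 change -0.66 with SE 0.18, adjusted p = 0.00138). The ratio of Il13ra2 to Il13ra1 in FPKM was 0.0536, 0.0665 and 0.0525 in control and 0.0332, 0.0255 and 0.0295 in cKO libraries. The decoy stood lower beside the signalling chain in every cKO library, and the mean ratio was 1.96-fold higher in control. Its promoter window (X chromosome, minus strand), shown as that of the member that fell, held 1 AP-1 match and 1 GATA match.

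Il13ra2: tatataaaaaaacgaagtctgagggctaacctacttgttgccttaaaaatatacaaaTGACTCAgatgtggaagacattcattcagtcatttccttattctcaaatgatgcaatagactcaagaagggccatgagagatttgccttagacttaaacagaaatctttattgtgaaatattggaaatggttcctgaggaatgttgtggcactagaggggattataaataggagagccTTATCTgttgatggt

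**Figure D2:**
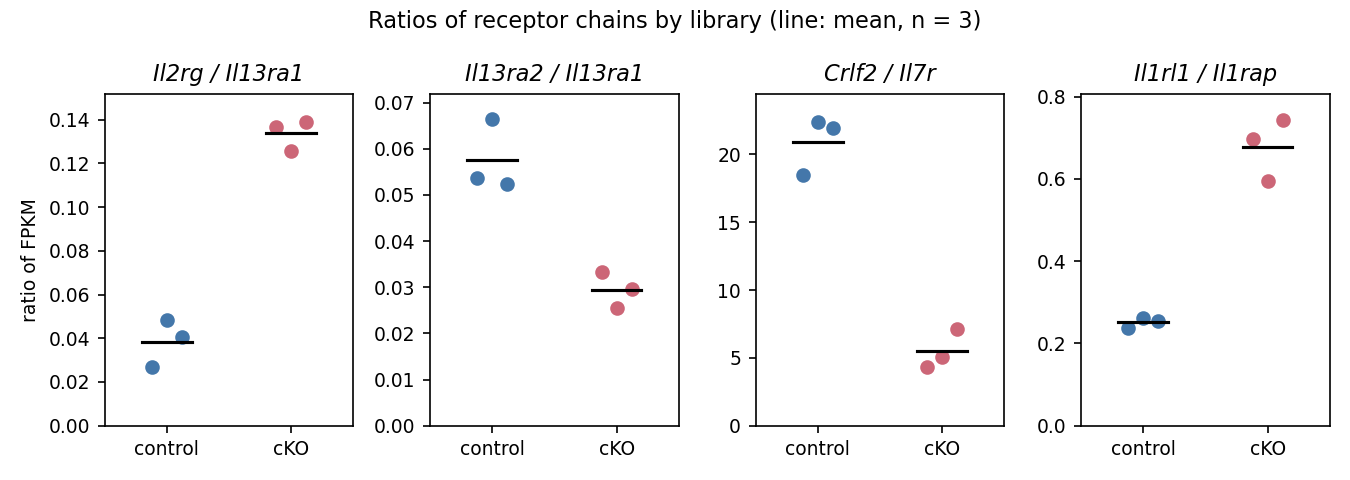
Ratio of 2 receptor chains in FPKM (vertical axes, each from 0) in each control and cKO library, with a line at the mean of 3. In all 4 panels the groups are apart: Il2rg to Il13ra1 and Il1rl1 to Il1rap are higher in cKO libraries, Il13ra2 to Il13ra1 and Crlf2 to Il7r lower.

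Il1rl1, the IL-33 receptor of mast cells, group 2 innate lymphoid cells and type 2 helper T cells, was counted 267, 272 and 290 times in the control replicates against 836, 801 and 885 times in the cKO replicates. Both groups were tight, and the groups were far apart. Mean Il1rl1 went from 7.59 ± 0.311 CPM to 23.2 ± 1.13 CPM and rose 3.05-fold (edgeR log2 change 1.61 with SE 0.10, adjusted p = 8.61e-24). The gene gives a membrane receptor and a shorter soluble form that binds IL-33 without signalling, and counts per gene do not separate them. Its partner Il1rap rose 1.14-fold, from 44.6 ± 1.49 to 50.7 ± 3.53 CPM (edgeR adjusted p = 0.00282). The ratio of Il1rl1 to Il1rap in FPKM was 0.238, 0.261 and 0.255 in control and 0.697, 0.595 and 0.744 in cKO libraries, with a 2.70-fold higher mean in cKO libraries and no overlap. The ligand gene Il33 was counted 1012, 902 and 944 times in the control replicates against 5191, 5088 and 5351 times in the cKO replicates, so ligand and receptor were both higher. RefSeq's table lists 2 starts of Il1rl1 on the plus strand of chromosome 1, both shown because the counts sum over them. The first window held 1 GATA and 1 ETS match, and the second held 1 GATA match.

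Il1rl1, first start: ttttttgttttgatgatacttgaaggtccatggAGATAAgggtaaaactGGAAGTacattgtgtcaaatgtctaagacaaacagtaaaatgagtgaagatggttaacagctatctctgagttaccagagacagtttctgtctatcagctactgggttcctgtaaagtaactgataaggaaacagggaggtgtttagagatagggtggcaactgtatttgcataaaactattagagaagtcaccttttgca

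Il1rl1, second start: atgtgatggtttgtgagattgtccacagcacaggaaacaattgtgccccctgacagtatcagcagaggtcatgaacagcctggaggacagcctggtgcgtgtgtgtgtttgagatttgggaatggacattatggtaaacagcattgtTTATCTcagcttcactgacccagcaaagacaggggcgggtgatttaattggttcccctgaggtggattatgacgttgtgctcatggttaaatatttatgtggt

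**Figure D3:**
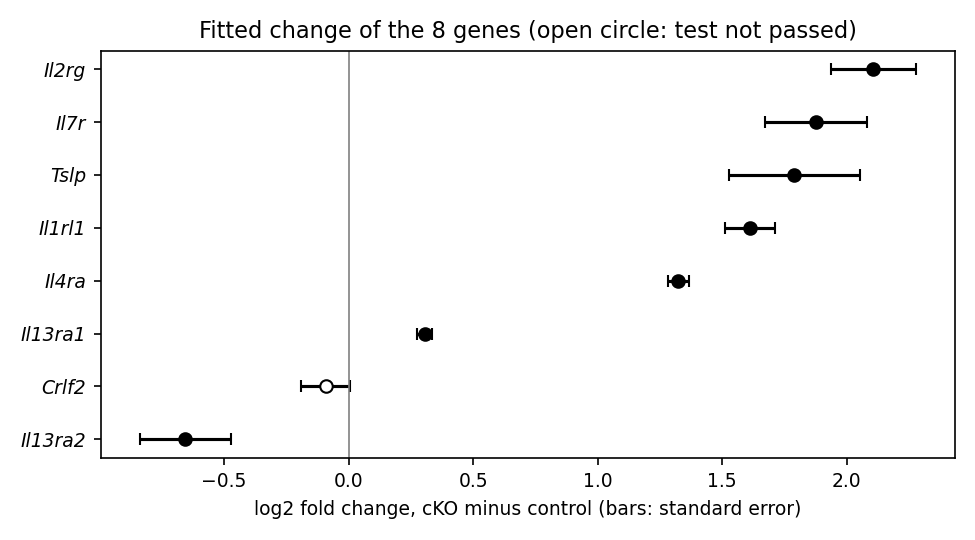
Fitted log2 fold change of each gene, cKO minus control (horizontal axis), with bars for the standard error and a filled circle where the test was passed. Il2rg is highest at 2.11, Crlf2 spans 0 and Il13ra2 is lowest at -0.66.

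Per length, the order of the members changed between groups. In control libraries Il13ra1 was highest at 36.6 ± 1.69 FPKM. Il4ra and Crlf2 followed at 8.76 ± 0.217 and 8.67 ± 0.891 FPKM, and their ranges overlapped. Il13ra2 came next at 2.10 ± 0.203 FPKM. Then came Il2rg, Il1rl1 and Tslp at 1.40 ± 0.376, 1.01 ± 0.0422 and 0.999 ± 0.273 FPKM, each overlapping its neighbour in the order, and Il7r was lowest at 0.414 ± 0.0147 FPKM. In cKO libraries Il13ra1 was still highest at 45.9 ± 0.248 FPKM. Il4ra, at 22.3 ± 0.578 FPKM, stood clear of Crlf2 at 8.26 ± 0.590 FPKM, and Il2rg followed at 6.14 ± 0.365 FPKM. Tslp and Il1rl1 overlapped at 3.52 ± 0.624 and 3.13 ± 0.152 FPKM. Il7r and Il13ra2 overlapped at the low end, at 1.55 ± 0.292 and 1.35 ± 0.185 FPKM, so the decoy receptor went from the fourth place to one shared with Il7r at the bottom.

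**Figure D4:**
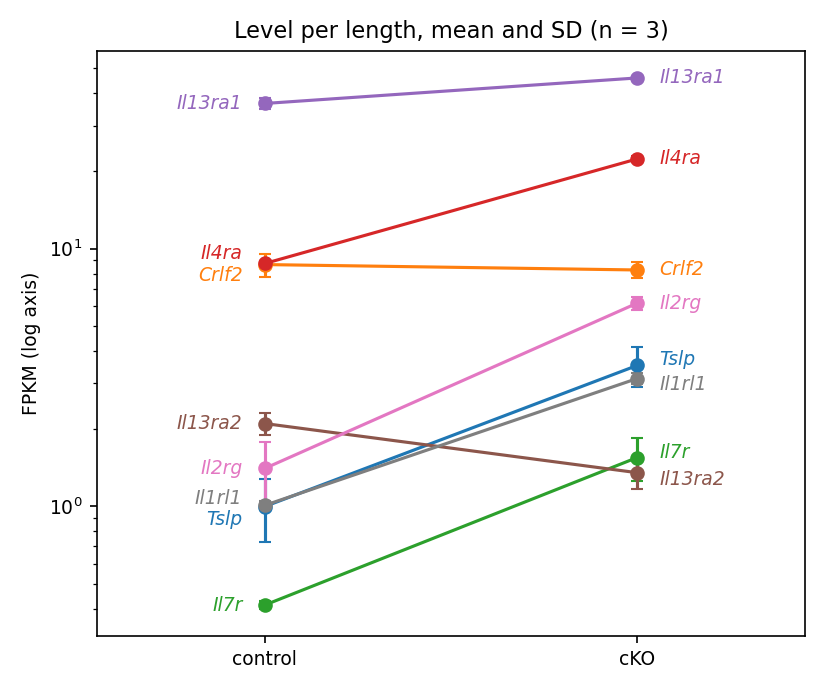
Mean FPKM of each gene (log axis) in control and cKO libraries, with bars for the SD over 3 libraries. Lines for Il4ra, Il2rg, Tslp, Il1rl1 and Il7r climb steeply, that of Il13ra1 rises little, that of Crlf2 is nearly flat and that of Il13ra2 falls.

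The cytokine genes Il4, Il13 and Il25 were near the limit of detection. Il4 was counted 0, 0 and 4 times in the control replicates against 2, 10 and 1 times in the cKO replicates, and Il13 had 0, 5 and 0 against 0, 0 and 2 counts. Il25, another epithelial alarm cytokine, which binds a receptor outside this set, had 3 counts over the control and 2 over the cKO libraries. These were too few to test, and a difference in the type 2 cytokines was not detectable at this depth. Il33 rose 5.49-fold (26.2 ± 1.26 CPM in control, 144 ± 3.45 CPM in cKO libraries, edgeR log2 change 2.46 with SE 0.045). Il7, the other ligand of the Il7r chain, fell 1.62-fold (from 2.46 ± 0.383 to 1.52 ± 0.394 CPM, edgeR adjusted p = 0.0342), while its receptor chain rose. Il15 did not pass the test (edgeR adjusted p = 0.335). Il5, Il9, Il31, Il21 and Il3 were not among the counted genes under these names, so no value was available for them.

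Chains that pair with the members or belong to neighbouring receptors were mostly higher, with 10 of 14 tested genes higher and 3 lower (median log2 fold change 0.39). The shares over all genes tested were 30.8% higher and 30.6% lower. Among chains that form receptors with the common gamma chain, Il21r rose 12.5-fold from 13 to 167 counts over the group, Il2rb 4.24-fold (from 0.595 ± 0.260 to 2.54 ± 0.280 CPM) and Il2ra 2.61-fold (from 0.660 ± 0.364 to 1.73 ± 0.637 CPM). Il15ra did not pass (edgeR adjusted p = 0.145), and Il9r and Il5ra had too few counts to test. The receptor chain genes Csf2rb and Csf2rb2, near-identical copies whose reads the counting could have split, rose to a similar degree (log2 fold change 1.19 and 1.03). Il31ra, which pairs with Osmr as the receptor for IL-31, fell 17.6-fold, from 571 to 32 counts over the group. Osmr went the other way and rose 1.26-fold (from 37.8 ± 1.83 to 47.7 ± 1.87 CPM, edgeR adjusted p = 5.95e-07). Sigirr, an inhibitory receptor of the IL-1 family that can restrain ST2, fell 1.73-fold (from 5.97 ± 0.318 to 3.46 ± 0.0114 CPM).

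Genes that carry the signal went both ways. Of 24 JAK-STAT, insulin receptor substrate and MyD88 pathway genes tested, 10 rose and 7 fell (median log2 fold change 0.10), beside 30.8% and 30.6% of all genes tested. Stat6, the transcription factor of IL-4Rα, rose 1.29-fold (81.4 ± 5.58 CPM in control, 105 ± 2.99 CPM in cKO libraries, edgeR log2 change 0.37 with SE 0.041). Jak3, the kinase bound to the common gamma chain, rose 1.49-fold (from 6.05 ± 0.947 to 9.02 ± 0.536 CPM). Jak1, the kinase of IL-4Rα and IL7R, fell 1.13-fold (from 213 ± 4.15 to 188 ± 3.65 CPM), and Stat5a, a target of TSLP signalling, fell 1.25-fold (from 23.0 ± 1.49 to 18.3 ± 1.12 CPM). Jak2, Tyk2 and Stat5b did not pass, with edgeR adjusted p of 0.0819, 0.946 and 0.320. The feedback inhibitors Socs1, Socs5 and Socs3 rose 2.43-fold, 2.32-fold and 2.17-fold. Socs2 and Cish of the same list did not pass (log2 fold change -0.24 and 0.20, edgeR adjusted p = 0.0597 and 0.0650). Pik3r1, a regulatory subunit of PI3-kinase, and Irs2, an adaptor docked to IL-4Rα, fell 1.52-fold and 1.38-fold.

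Genes known to respond to IL-4 or IL-13 went both ways, with 7 of 18 tested higher and 8 lower (median log2 fold change -0.20). Over all genes tested, 30.8% were higher and 30.6% lower. The chitinase-like genes Chil4 and Chil3, which are close copies, rose from 8 to 743 and from 10 to 191 counts over the group, and Arg1, which encodes arginase, rose by 3.59 on the log2 scale. Ccl24, an eosinophil-attracting chemokine, fell 2.66-fold (from 5.11 ± 0.765 to 1.92 ± 0.255 CPM). Retnla, a secreted marker of alternatively activated macrophages, fell 2.43-fold (from 4.04 ± 0.558 to 1.66 ± 0.165 CPM), and the macrophage lectin gene Mgl2 fell 2.23-fold (from 28.0 ± 1.10 to 12.6 ± 2.21 CPM). These response genes did not move in 1 direction together.

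Genes placed upstream of TSLP in keratinocytes also split, with 7 of 22 tested higher and 7 lower (median log2 fold change -0.09). These counts are near the shares over all genes tested, 30.8% higher and 30.6% lower. Without scaling, or with scaling by the upper quartile, 9 were higher and 7 lower. The kallikrein protease gene Klk14 rose 4.39-fold (from 199 to 870 counts over the group), and Spink5, the inhibitor of such proteases, rose 1.52-fold (from 1290 ± 12.9 to 1963 ± 8.84 CPM). F2rl1, the protease-activated receptor that kallikreins cleave, did not pass the test (edgeR adjusted p = 0.104). The calcium-signalling genes Nfatc2, Nfatc1 and Stim1 fell 1.74-fold, 1.57-fold and 1.55-fold. The vitamin D receptor gene Vdr, whose ligands induce Tslp in mouse skin, fell by 0.52 on the log2 scale. Cyp24a1, a standard target gene of that receptor, went the other way and rose from 5 to 73 counts over the group (edgeR adjusted p = 4.13e-05).

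**Figure D5:**
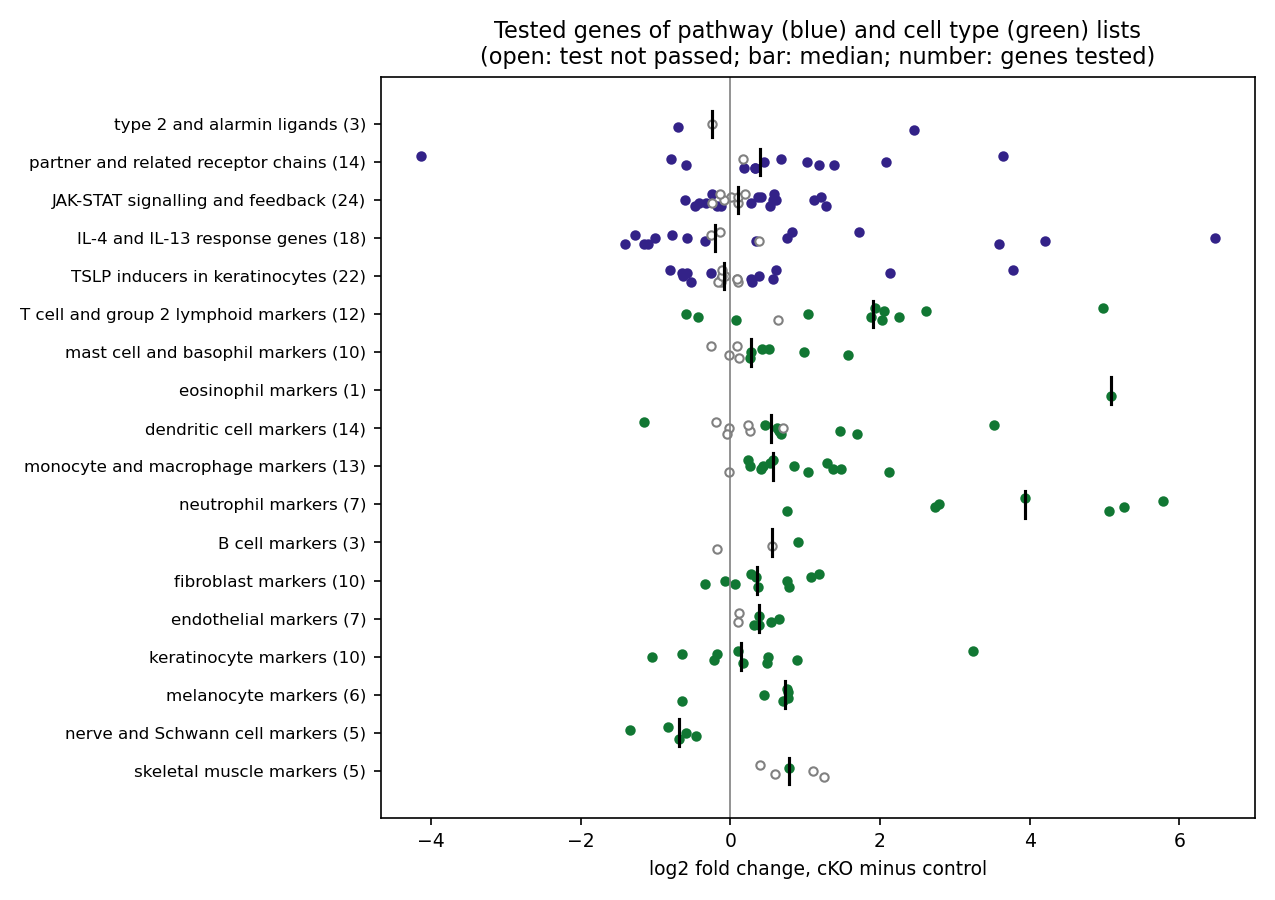
Fitted log2 fold change, cKO minus control (horizontal axis), of the tested genes of 5 pathway lists and 13 cell type lists, with a bar at each list's median and open circles for genes that did not pass the test. Response genes of IL-4 and IL-13 lie on both sides of 0, neutrophil markers all lie to the right and nerve and Schwann cell markers all to the left.

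Markers of cells that carry these receptors also changed. Their counts by list stand beside 30.8% of all genes tested called higher and 30.6% called lower. Of 12 tested T cell and group 2 lymphoid markers, 9 rose and 2 fell (median log2 fold change 1.91). The 1 that did not pass was Cd3e (56 counts over control and 87 over cKO libraries, edgeR adjusted p = 0.291). Thy1, counted among those that rose, did so by only 0.08 on the log2 scale. Icos and Lck rose by 2.62 and 2.26 on the log2 scale, beside the rises of Il7r and Il2rg, while Klrg1 was at 0 in every control library and had 20, 27 and 7 counts in the cKO libraries. With the control set at 3 counts for the whole group, Klrg1 was at least 18.4-fold higher in cKO libraries. The summed level of that list was nevertheless lower, at 645 to 648 CPM in control and 514 to 535 CPM in cKO libraries, most of it being Rora (447 CPM in control and 298 CPM in cKO libraries), which other skin cells also express. Rora and Gata3, the genes of that list that fell, encode transcription factors on which group 2 innate lymphoid cells depend. Rora fell by 0.59 on the log2 scale, and Gata3 fell 1.35-fold (from 5467 to 4022 counts over the group, edgeR adjusted p = 6.52e-10). Gata3, like Rora, was far more abundant than Icos and Lck, which had 66 and 61 counts over the control libraries. Whether the fall of Gata3 or Rora lay in lymphoid cells was not tested. Of 13 monocyte and macrophage markers, 12 rose (summed level 839 to 862 CPM in control and 1221 to 1239 CPM in cKO libraries), with Ly6c2 and Ccr2 rising most. Among 14 dendritic cell markers 7 rose and 1 fell (408 to 423 against 573 to 582 CPM), led by Ccr7 and Itgax, while Crlf2, which dendritic cells carry, did not pass the test. All 7 tested neutrophil markers rose (100.5 to 106 against 3480 to 3542 CPM), led by Trem1 and S100a9. Ly6g, Mpo, Ngp and Ltf of that list had too few counts to test. The summed level includes S100a8 and S100a9, and whether its rise lay in neutrophils was not tested. Which cells of the skin held the rising counts was not tested.

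For Il1rl1, the mast cell and basophil list gave 6 of 10 tested markers higher and none lower (278 to 286 against 326 to 351 CPM, median log2 fold change 0.27). Fcer1a and Hdc rose by 1.58 and 0.99, while the mast cell genes Cma1 and Kit did not pass (log2 fold change -0.02 and 0.09). The genes of that list too low to test were not all higher. Mcpt8 of basophils had 1 count over control and 10 over cKO libraries, Mcpt1, a mast cell protease, had 2, 6 and 14 counts in control and 0 in every cKO library, and Mcpt2 had 0 and 4 counts over the groups. Of the eosinophil markers only Ccr3 had enough counts to test, and it rose from 9 to 317 counts over the group, while Siglecf had 14 against 54 and Prg2 10 against 7 counts. For Il13ra1 and Il4ra, which keratinocytes and fibroblasts carry, 6 of 10 keratinocyte markers rose and 4 fell (32339 to 32580 against 60316 to 61065 CPM, led by the rise of Krt1, while Krt15 fell), and 8 of 10 fibroblast markers rose and 2 fell (12040 to 12150 against 17209 to 17255 CPM, led by Col3a1 and Fbln1). Endothelial markers had 5 of 7 higher, led by Kdr and Cdh5 (215 to 218 against 271 to 285 CPM), and melanocyte markers 5 of 6 higher and 1 lower, led by Dct and Tyrp1 (121 to 127 against 168 to 178 CPM). Nerve and Schwann cell markers went the other way, and all 5 fell, led by Mbp and Ncam1 (141 to 158 against 63.0 to 74.0 CPM, median log2 fold change -0.69). B cell markers had 1 of 3 tested higher, Blk (2.23 to 2.64 against 2.44 to 5.25 CPM), and skeletal muscle markers 1 of 5, Ckm (5.88 to 9.29 against 9.42 to 21.9 CPM). No marker present in the counts was at 0 in all 6 libraries. Trac, Trdc, Tpsab1 and Epx were listed but were not among the counted genes under these names. The part of any of these cell types in the levels of the 8 genes was not tested.

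Across the 6 libraries, genes of the pathway and cell type lists were ranked by the Pearson correlation of their log2 CPM with that of each called member. With 2 groups of 3 such values mostly restate the group difference. Il2rg was most like Lck, Ccr3 and C1qa (r = 0.995, 0.995 and 0.993). Il7r was most like C1qb, Areg and Dct (r = 0.993, 0.992 and 0.992), and Tslp was most like Socs1, Socs5 and Lyz2 (r = 0.989, 0.981 and 0.973). Il4ra was most like Spink5, Col1a2 and Col3a1 (r = 0.9998, 0.9993 and 0.9992), Il1rl1 like Klk7, Krt14 and S100a8 (r = 0.999, 0.998 and 0.998), and Il13ra1 like Myd88, Socs1 and Mmp8 (r = 0.989, 0.988 and 0.987). Il13ra2 was most like Il7, Il17rb and Rarg (r = 0.965, 0.952 and 0.950), all of which fell. Between 3 and 186 of all tested genes were as close to a member as the nearest listed gene, so these neighbours are not particular to the members.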

How the data were processed

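RNA was extracted with TRIzol and sequenced from 3 control and 3 cKO libraries, grouped by the titles and genotypes in the labels. The authors deposited counts per gene, whole numbers without normalization, and FPKM made from the same counts. Per the submitters' processing notes the tools were fastp, HISAT2 and HTSeq on mm39. Their versions, the annotation and the strand setting are not stated in the sources used here, so reads of overlapping or antisense genes cannot be told apart. The deposited FPKM equalled counts divided by 1 length per gene and by the library total for all 18180 genes (relative tolerance 1e-06). No value column lacked a library.

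The counts of all genes went into 1 fit (edgeR 4.0.16, R 4.3.3). The filter was filterByExpr (minimum count 10, minimum total 15), libraries were scaled by TMM, and the robust quasi-likelihood test had group as its only term. P-values are two-sided with Benjamini-Hochberg adjustment across all 15061 genes, with calls at an adjusted p under 0.05. The SE was derived from the F statistic as |log2 change|/√F. The scripts were tested on simulated counts. CPM use the scaled libraries, FPKM serve to compare genes, and a ratio is that of 2 genes within a library.

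The 8 genes and the 18 gene lists (217 names, 207 of them in the table, 183 tested) were chosen with earlier results of these data known. One more gene of these lists is not reported here and was left out of its list's counts, median and sum after they had been seen. Named beside the members are a fixed set of ligands and signal carriers, up to 3 called genes in the majority direction and 2 in the other from each pathway list, and up to 2 from each cell type list, by size of change, where the higher group averaged 1 CPM or more. Further genes, namely Krt5, Krt14, Gata3, Cyp24a1, Mcpt1, Mcpt2, Arg1, Vdr, F2rl1, Il15, Il15ra, Il9r, Il5ra, Csf2rb, Csf2rb2, Osmr, Klrg1, Rora, Cma1, Kit, Mcpt8, Siglecf, Prg2, Ly6g, Mpo, Ngp and Ltf, were added after their values were seen. So were Cd3e, Thy1, Socs2 and Cish. Alternatives were DESeq2 1.42.0, limma 3.58.1 (voom, and log2 FPKM with a pseudocount of 1 or 0.1), other scaling and filters, the replicate number as a block, assumed BCVs of 20% and 40%, and leaving out each library.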

Additional observations from a re-analysis of the deposited data

How the results depend on the processing

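All 6 rises and the fall of Il13ra2 kept their direction and their call in DESeq2, limma-voom, limma on log2 FPKM, the other scaling factors, the other filters, and without each library in turn. Crlf2 passed in none of these or the following. With an assumed BCV of 20% the count of called genes fell to 3361, and 5 members were higher and 1 lower (Il13ra1 was lost). With a BCV of 40% it was 774, with 4 members higher and 0 lower. Of 171 refits of the members and Mettl3, 165 kept their side of the threshold and 6 lost it, all under an assumed BCV. The 4 ratios moved by less than their spread without any 1 library, and ratios of counts gave the same folds by construction. Some list counts moved without scaling and with scaling by the upper quartile. JAK-STAT pathway genes then had 12 higher and 7 lower, and genes upstream of TSLP 9 and 7. Response genes of IL-4 and IL-13 had 7 and 7, and fibroblast markers 8 and 1. Same-numbered libraries of the groups did not deviate together (r from -0.058 to -0.015). No library correlated best with its own number, so the numbers were not treated as pairs. With the replicate block 9212 genes were called, against 9244 without it, with the same 6 members higher and 1 lower. Depth limits Tslp, with 28 to 172 counts per library, and Il4, Il13 and Il25, which could not be tested.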
